A study of Homo sapiens with 18 samples.

Results

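The genes described here make ribosomes. They are 40 genes that encode the RNA polymerase I machinery and the nucleolar factors that modify, cut and assemble ribosomal RNA. Their symbols were given as a fixed list, and all 40 were found among the 23368 gene rows of the count tables. Their levels were compared in SJSA-1 cells, an osteosarcoma line in which the genes of both drug targets, MDM2 and CDK4, are amplified. The choice of the symbols used no measured value of these cells, but earlier results of the same libraries were known when the list was drawn up.

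RNA polymerase I copies the ribosomal DNA repeats inside the nucleolus into a long precursor RNA. UBTF opens these repeats for transcription, RRN3 brings the polymerase to the promoter, and small nucleolar ribonucleoproteins (snoRNPs) then guide methylation (box C/D) or pseudouridylation (box H/ACA) of the precursor. Assembly factors fold and cut it into the small and the large ribosomal subunit. Many genes of this programme are known targets of the transcription factor MYC, which binds the E-box, and ribosome production is known to slow when p53 is active or when cells stop dividing.

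RNA was sequenced in 18 libraries, with 3 replicates in each of 6 groups. DMSO was the solvent control. Nutlin, an MDM2 antagonist that activates p53, was given for 6 h at 20 µM according to the sample labels. PD0332991 (Palbociclib), an inhibitor of CDK4 and CDK6, was used at 10 µM. It was present for 30 h in PD30 and for 24 h in PD24, where the study's schedule removed it for the last 6 h. In N+PD24 and N+PD30, Nutlin was given for 6 h with the corresponding PD0332991 schedule, so N+PD24 received it after the removal. All groups are the same cell line. The study calls the replicates biological, but neither it nor the labels say that they came from separate cultures, so p-values measure the spread between these libraries.

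The libraries held between 12704845 and 40231041 counted reads, with a median of 29608936, and the shallowest was replicate 1 of N+PD30. The drugs left their known marks. MDM2 and CDKN1A, both p53 targets, rose with Nutlin by 3.27 ± 0.15 and 4.56 ± 0.16 on the log2 scale (log2 fold change ± SE, here and below; edgeR quasi-likelihood test, adjusted p = 5.45e-07 and 1.65e-07). The S phase cyclin CCNA2 lay between 211 and 213 CPM (counts scaled to a common library total) in DMSO, between 82.0 and 99.7 in Nutlin, and at no more than 4.92 in every library that had received PD0332991, PD24 included. Of the osteoblast markers, COL1A1 was at 1084 CPM or more and RUNX2 at 18.8 or more, whereas SP7, IBSP and BGLAP did not exceed 0.256. Of the blood, endothelial and epithelial markers, PTPRC, CD3E and CDH5 stayed below 0.5 CPM and EPCAM at no more than 0.866, whereas VWF reached 14.2, CD68 reached 39.0, and KRT18 reached 247. The summed endothelial markers lay between 1.82 and 2.94 CPM in DMSO and between 11.4 and 16.2 in N+PD24. Their part in the results was not tested. In RNA from whole cultures, fewer cells of a type and less RNA per cell cannot be told apart.

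CPM values were scaled by TMM, a factor per library that centres most genes on no change, so they are relative levels and not amounts of RNA per cell. A gene was called lower or higher at a Benjamini-Hochberg adjusted p under 0.05 over all genes tested. All 40 members passed the filter on low counts in each of 9 comparisons. PD24 was the group in which most members peaked: 33 of the 40 had their highest mean level there, whereas 14.1% of 16427 genes tested did. DMSO held the highest mean of 5 members and Nutlin of 2, and of 22.7% and 17.7% of these genes. The lowest mean was in Nutlin for 18 members and in N+PD30 for 15, and for 20.2% and 15.5% of these genes. No member had its lowest mean in DMSO or in PD24, where 21.9% and 12.5% of these genes did.

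**Figure D1:**
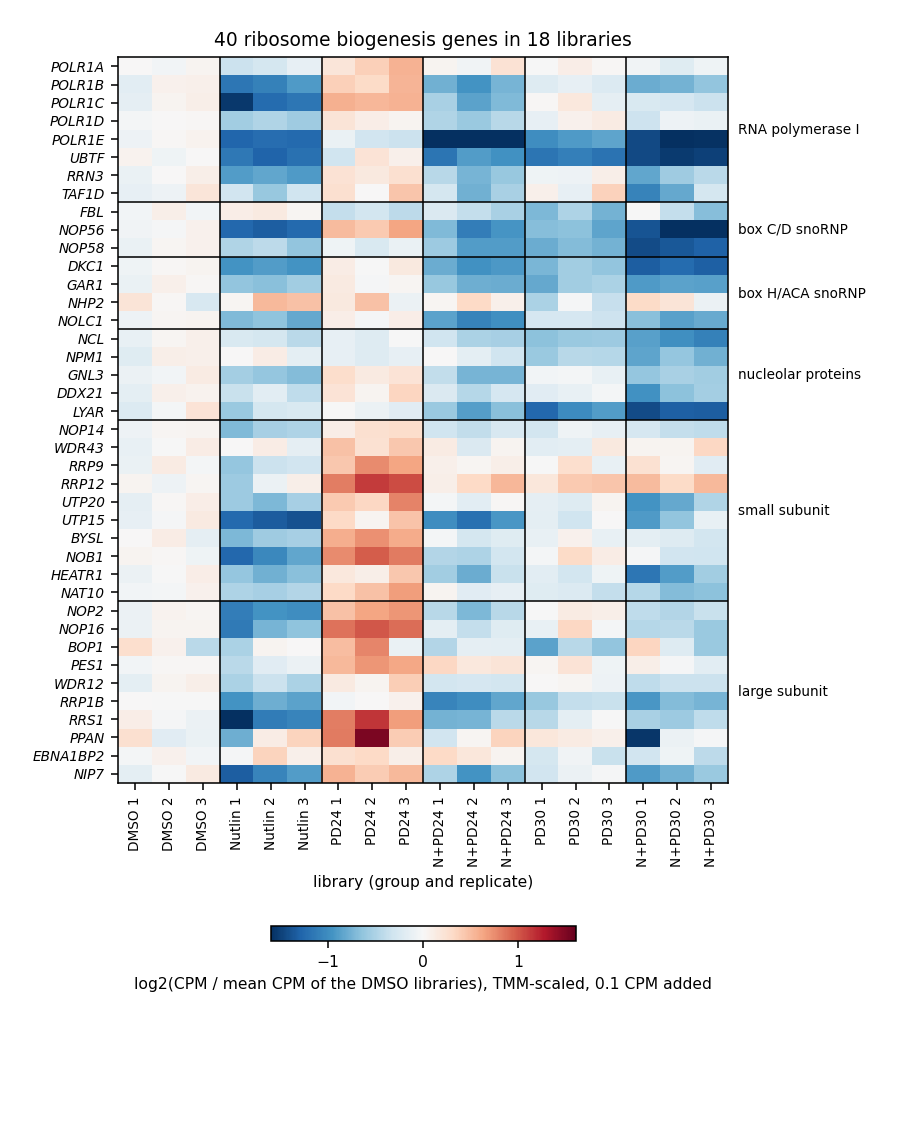
Each row is a member, grouped by role, and each column a library; colour gives log2 of its TMM-scaled CPM over the mean of the DMSO libraries, with 0.1 CPM added, and values beyond 1.6 take the end colour. The Nutlin columns are blue for most members, the PD24 columns are red for the assembly factors, and the PD30 columns are blue for the snoRNP proteins, UBTF, POLR1E and LYAR.

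Since many of these genes are known as MYC targets, their promoters were searched for the E-box CACGTG, a sequence that reads the same on both strands. RefSeq promoters on GRCh38.p14, which span 250 bases before to 50 bases after a start, were at hand for 33 of the 40 members. The E-box was present in 14 of the 33 (42.4%), in 34 of 105 other ribosome biogenesis genes (32.4%), in 4 of 63 ribosomal protein genes (6.35%) and in 12.0% of 10691 genes tested. The E2F forms TTTGGCGC, TTTCCCGC and TTTGGCGG, searched on both strands, were present in 2 of the 33 members (6.06%) and in 5.64% of the genes tested. These matches are letters in a window and no measure of binding. The following windows of 30 bases show the E-box in capitals, 5′ to 3′ on the strand of the gene, for 6 members called higher in PD24 and, for contrast, for FBL, which was called lower there, and LYAR, which was not called. The windows were chosen after these calls were known.
WDR43: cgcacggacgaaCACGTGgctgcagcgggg
RRP9: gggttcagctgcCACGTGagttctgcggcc
UTP20: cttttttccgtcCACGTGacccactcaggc
BYSL: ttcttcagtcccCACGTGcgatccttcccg
NAT10: aatgcgcttgcgCACGTGctgtctaccagt
PES1: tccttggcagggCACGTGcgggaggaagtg
FBL: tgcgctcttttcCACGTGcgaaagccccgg
LYAR: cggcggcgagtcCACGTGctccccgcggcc
On GRCh38.p14 these windows are chr2:28894658-28894687 on the plus strand for WDR43, chr3:51941892-51941921 on the minus strand for RRP9 and chr12:101280083-101280112 on the plus strand for UTP20. They are chr6:41921515-41921544 (plus) for BYSL, chr11:34105602-34105631 (plus) for NAT10, chr22:30591880-30591909 (minus) for PES1, chr19:39846356-39846385 (minus) for FBL and chr4:4290068-4290097 (minus) for LYAR. The E-box lay near the start in each of the 8, from 64 bases before it in LYAR to 28 after it in BYSL.

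The first comparison asked how the genes answered to Nutlin alone. Nutlin lowered 26 of the 40 members, against a background of 28.0% of the 15766 genes tested that were called lower. It raised 1 member, against 26.6% of all genes. Across the members the median was -0.50 on the log2 scale, and across all genes it was 0.03. Scaling by total counts moved the median of all genes to -0.10 and the split of all calls from 4416 lower and 4198 higher to 5439 and 3151, and 31 members were then lower and none higher. Some of these changes were large: 6 members were called lower by more than 2-fold, where 8.42% of all genes were, and none higher, where 12.4% were.

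The RNA polymerase I machinery had 6 of 8 members lower under Nutlin. POLR1C, a subunit shared with RNA polymerase III, was at 17.7, 20.0 and 20.7 CPM in DMSO and at 6.60, 8.25 and 8.72 in Nutlin. The groups stood well apart, with a log2 fold change of -1.22 ± 0.15 (edgeR, adjusted p = 8.48e-05). POLR1E, a subunit that stabilises the elongating polymerase, was at 23.5, 25.1 and 25.9 CPM in DMSO and at 10.2, 10.6 and 10.5 in Nutlin (-1.16 ± 0.11, edgeR adjusted p = 2.44e-05). UBTF was at 159, 145 and 153 CPM in DMSO and at 68.8, 62.7 and 66.3 in Nutlin (-1.12 ± 0.09, edgeR adjusted p = 7.47e-06). Every Nutlin library lay below every DMSO library for these 3 genes.

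POLR1B, the second largest subunit of the enzyme, fell from 47.4, 55.5 and 56.4 CPM to 23.8, 24.9 and 28.3 (-0.96 ± 0.12, edgeR adjusted p = 8.74e-05). RRN3 fell from 64.7, 69.8 and 74.3 CPM to 37.3, 39.0 and 37.1 (-0.80 ± 0.10, edgeR adjusted p = 8.85e-05). POLR1A, the largest subunit, was at 97.2, 93.9 and 99.6 CPM in DMSO and at 76.5, 79.9 and 88.6 in Nutlin. Its groups did not overlap, but it was not called (-0.16 ± 0.09, edgeR adjusted p = 0.161). The difference between POLR1A and POLR1B was not tested.

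Among the proteins that join snoRNAs, NOP56 stood out. This core protein of the box C/D snoRNP was at 204, 208 and 222 CPM in DMSO and at 88.4, 84.3 and 89.4 in Nutlin (-1.19 ± 0.09, edgeR adjusted p = 5.09e-06). Its partner FBL, the methyltransferase of the same particle, was at 133, 146 and 133 CPM in DMSO and at 148, 152 and 140 in Nutlin. These groups overlapped, and FBL was not called (0.19 ± 0.08, edgeR adjusted p = 0.0824). In the box H/ACA group, DKC1, GAR1 and the chaperone NOLC1 were called lower. NHP2, another core protein of that particle, was the member called higher, at 116, 103 and 84.5 CPM in DMSO and 104, 146 and 140 in Nutlin (0.45 ± 0.15, edgeR adjusted p = 0.0261). The NHP2 groups overlapped, and the call was lost without replicate 2 or 3 of DMSO or of Nutlin (adjusted p up to 0.108), while without replicate 1 of Nutlin 2 members were called higher.

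The 5 members grouped as abundant nucleolar proteins had a median of -0.23 on the log2 scale with Nutlin. The name is that of a role, and LYAR among them had a mean of 49.6 CPM in DMSO. NCL, which binds nascent ribosomal RNA, was at 1000, 1111 and 1151 CPM in DMSO and at 916, 899 and 809 in Nutlin (-0.23 ± 0.09, edgeR adjusted p = 0.0644). NPM1, a chaperone of nucleolar assembly, was at 1349, 1640 and 1637 CPM in DMSO and at 1542, 1676 and 1384 in Nutlin (0.08 ± 0.11, edgeR adjusted p = 0.573). Of these 5 proteins GNL3, a nucleolar GTPase, was the one called lower in this fit. NCL, DDX21 and LYAR were at lower levels in every Nutlin library than in every DMSO library. Each was called lower in at least 1 alternative fit (smallest edgeR adjusted p = 0.00582, 0.0103 and 0.0393). NPM1 has 49 annotated pseudogenes, so its reads could have been split among copies.

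The assembly factors were mostly lower, with 8 of 10 for the small subunit and 6 of 10 for the large. UTP15, which acts on early small subunit precursors, was at 26.2, 28.4 and 31.7 CPM in DMSO and at 12.1, 11.4 and 10.9 in Nutlin (-1.24 ± 0.12, edgeR adjusted p = 2.66e-05). RRS1, which recruits the 5S particle to the large subunit, was at 51.9, 47.5 and 45.4 CPM in DMSO and at 12.8, 22.2 and 23.2 in Nutlin (-1.23 ± 0.19, edgeR adjusted p = 0.000459). Nutlin replicate 1 held the lowest RRS1 level of the series. NOB1, the nuclease that finishes the small subunit RNA, went from 50.9, 50.4 and 47.4 CPM to 20.6, 24.1 and 27.7 (-0.95 ± 0.12, edgeR adjusted p = 0.000122). WDR43, RRP12, PES1, BOP1, PPAN and EBNA1BP2 were not called.

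Genes with related functions were read in the same fit, from lists that were also compiled with results of these data known. Of 121 other ribosome biogenesis genes, 78 were lower with Nutlin and 4 higher, and their median was -0.40 on the log2 scale. The largest falls were URB2, a factor of large subunit assembly, at -2.14 (edgeR adjusted p = 4.16e-06) and TAF1A, a subunit of the RNA polymerase I selectivity factor, at -1.61 (adjusted p = 2.65e-05). Of 22 genes of the RNA polymerase III machinery, 13 were lower and 1 higher. The cytosolic ribosomal proteins went the other way: 74 of 77 were higher and none lower, with a median of 0.45. With scaling by total counts 69 of the 77 were higher and none lower. The ribosomal proteins were thus at higher relative levels in Nutlin while most of the assembly genes were at lower ones.

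**Figure D2:**
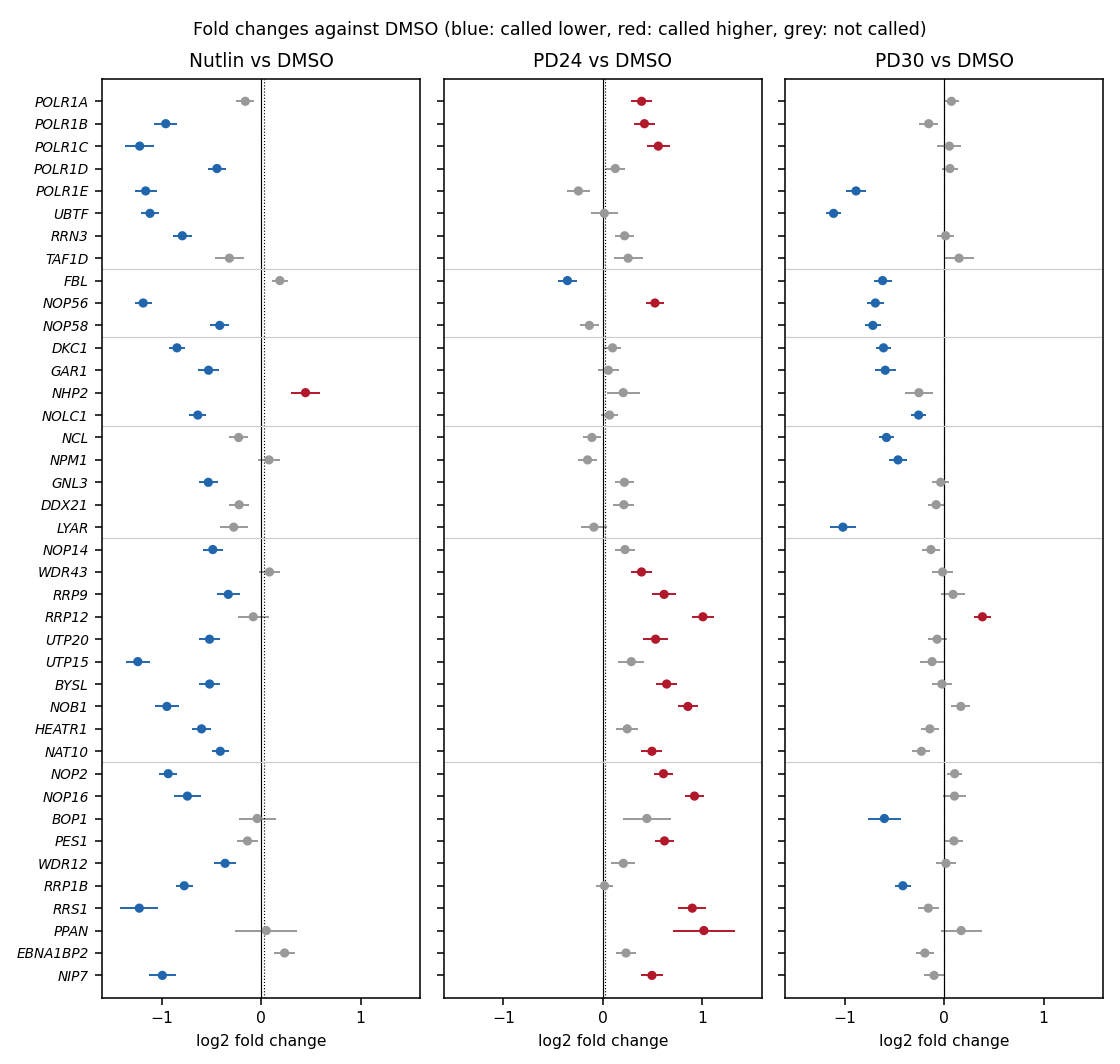
Points are log2 fold changes against DMSO and lines are 1 SE for each member, grouped by role, and the dotted line marks the median of all genes tested. Nutlin lowered 26 members, PD24 raised 17, and PD30 lowered 13, with UBTF and POLR1E below DMSO in Nutlin and PD30 but not called in PD24.

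The next comparison set PD24, from which PD0332991 had been removed, against DMSO. In PD24, 17 of the 40 members were higher than in DMSO, against a background of 17.5%, and 1 was lower, against 20.8%. The median of the members was 0.25 and that of all 15094 genes tested was 0.02. Past 2-fold, 2 members were higher, with 4.61% of all genes, and none lower, with 7.96%. Most of the rise was in the assembly factors, with 7 of 10 for the small subunit and 6 of 10 for the large called higher. RRP12, which exports precursor subunits, was at 47.1, 43.3 and 46.8 CPM in DMSO and at 80.9, 99.6 and 94.3 in PD24 (1.01 ± 0.11, edgeR adjusted p = 0.000146). NOP16, a large subunit factor, was at 41.8, 46.0 and 46.1 CPM in DMSO and at 81.3, 88.7 and 83.1 in PD24 (0.92 ± 0.10, edgeR adjusted p = 0.000131). Neither gene overlapped between the groups.

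RRS1 reached 85.0, 107 and 76.8 CPM in PD24 (0.90 ± 0.14, edgeR adjusted p = 0.00117), and NOB1 reached 83.5, 96.8 and 88.0 (0.86 ± 0.10, adjusted p = 0.000224). PPAN, a large subunit factor, had the largest fold change (1.02 ± 0.31, edgeR adjusted p = 0.0306) but was the least abundant member. Its levels were 1.67, 1.21 and 1.28 CPM in DMSO and 2.55, 4.11 and 1.87 in PD24. Its exons overlap those of the readthrough gene PPAN-P2RY11 on the same strand, so its reads are uncertain. The PPAN call was lost without replicate 2 or 3 of DMSO or replicate 1 or 2 of PD24 (adjusted p up to 0.101).

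In the polymerase, 3 of 8 members rose in PD24 and none fell. POLR1C was at 28.9, 28.1 and 28.8 CPM (0.56 ± 0.11, edgeR adjusted p = 0.00458). POLR1A reached 111, 126 and 143 CPM (0.39 ± 0.11, edgeR adjusted p = 0.018), and POLR1B reached 69.1, 65.6 and 77.7 (0.42 ± 0.11, adjusted p = 0.0156). Without replicate 1 or 2 of DMSO, POLR1A, POLR1B and WDR43 were no longer called (adjusted p up to 0.0857). UBTF was at 122, 177 and 160 CPM, a range that holds all DMSO values (0.02 ± 0.14, edgeR adjusted p = 0.938), and RRN3 was at 81.9, 77.5 and 83.0 (0.22 ± 0.09, edgeR adjusted p = 0.0972). The box H/ACA proteins and the abundant nucleolar proteins held no called member.

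NOP56 rose to 300, 283 and 328 CPM in PD24 (0.53 ± 0.09, edgeR adjusted p = 0.00181), while FBL fell to 105, 112 and 102 (-0.36 ± 0.09, edgeR adjusted p = 0.0151). FBL was the one member called lower, and this call was lost without replicate 2 of DMSO (adjusted p = 0.0845). The 2 proteins sit in the same particle, and their groups moved apart in opposite directions. Of the 121 other ribosome biogenesis genes 37 rose and 7 fell, led by DHX37, a helicase of small subunit assembly, at 1.07 (edgeR adjusted p = 0.000659). Of 77 ribosomal proteins 7 rose and none fell.

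With the E-box search set beside these calls, 7 of the 15 members with a promoter that rose in PD24 held the E-box (46.7%). So did 6 of 17 that were not called (35.3%) and FBL, which was lower. These shares did not lean the same way in every comparison. With Nutlin against DMSO, 8 of 21 lower members held the E-box (38.1%), and 6 of 11 not called did (54.5%). For N+PD30 against PD30 it was 4 of 15 lower (26.7%) and 10 of 18 not called (55.6%). For PD30 against PD24 it was 11 of 22 lower (50.0%) and 3 of 11 not called (27.3%). MYC itself, which is no member, was at 42.2, 34.0 and 32.9 CPM in DMSO and at 83.9, 90.4 and 75.4 in PD24 (1.20 ± 0.13, edgeR adjusted p = 0.000142). It was at 6.30, 12.0 and 10.3 CPM in Nutlin (-1.85 ± 0.21, edgeR adjusted p = 6.45e-05). MYC was low in Nutlin, where 26 members were lower, and high in PD24, where 17 were higher. It was also called higher in PD30, where 13 members were lower and 1 higher. That PD30 call was not kept in every fit that left out a library. The part of MYC in these results was not tested.

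The third question was the effect of continued inhibition. PD30 lowered 13 of the 40 members against DMSO, with a background of 25.4%, and raised 1, with a background of 22.9%. The median of the members was -0.13 and that of all 15125 genes tested 0.00. Past 2-fold, 2 members were lower, with 9.48% of all genes, and none higher, with 5.76%. The share of members that were lower was therefore near that of all genes, but among the members it was uneven by role. All 3 box C/D proteins, 3 of 4 box H/ACA genes and 3 of 5 abundant nucleolar proteins were lower, against none of 10 small subunit factors. The nucleolar proteins were NCL, NPM1 and the less abundant LYAR. Genes of these roles outside the 40 did not show this contrast. Of 48 other small subunit assembly genes 19 were lower and 4 higher, and of 11 other snoRNP genes 4 were lower and 1 higher.

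UBTF had the largest fall, to 67.9, 71.2 and 67.3 CPM in PD30 (-1.11 ± 0.08, edgeR adjusted p = 2.87e-06). LYAR, a nucleolar regulator of ribosomal RNA processing, went from 42.8, 48.4 and 57.7 CPM in DMSO to 20.7, 24.7 and 26.6 (-1.02 ± 0.13, edgeR adjusted p = 0.000201). POLR1E fell to 12.5, 13.2 and 13.8 CPM (-0.89 ± 0.10, edgeR adjusted p = 8.13e-05). None of these groups overlapped with DMSO. Other polymerase members were not called, with POLR1A at 96.3, 105 and 98.3 CPM (0.07 ± 0.07, edgeR adjusted p = 0.452), POLR1B at 46.0, 48.4 and 45.5 (-0.16 ± 0.10, adjusted p = 0.204), and RRN3 at 66.2, 65.9 and 74.3 (0.01 ± 0.09, adjusted p = 0.915).

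Of the standard nucleolar proteins, NCL was at 687, 723 and 724 CPM in PD30 (-0.58 ± 0.08, edgeR adjusted p = 0.000235), NPM1 at 1023, 1133 and 1127 (-0.47 ± 0.09, adjusted p = 0.00239) and FBL at 83.2, 97.1 and 81.1 (-0.62 ± 0.09, adjusted p = 0.000426). These 3 genes were among the 13 members that were not called with Nutlin alone in the main fit. NCL was called lower there in at least 1 alternative fit. NOP56 was at 132, 134 and 118 CPM (-0.69 ± 0.09, edgeR adjusted p = 0.000152) and NOP58, its partner in the particle, at 64.8, 69.5 and 66.4 against 104, 115 and 118 in DMSO (-0.72 ± 0.08, adjusted p = 8.29e-05). RRP12 was the one member that was higher, at 51.9, 61.4 and 62.2 CPM (0.38 ± 0.09, edgeR adjusted p = 0.00601). Of the 121 other ribosome biogenesis genes 42 were lower and 10 higher. MYC was at 38.2, 47.6 and 55.0 CPM in PD30, a range that overlapped that of DMSO, and was called higher (0.40 ± 0.14, edgeR adjusted p = 0.0387), a call lost without replicate 2 or 3 of DMSO or of PD30 (adjusted p up to 0.135).

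**Figure D3:**
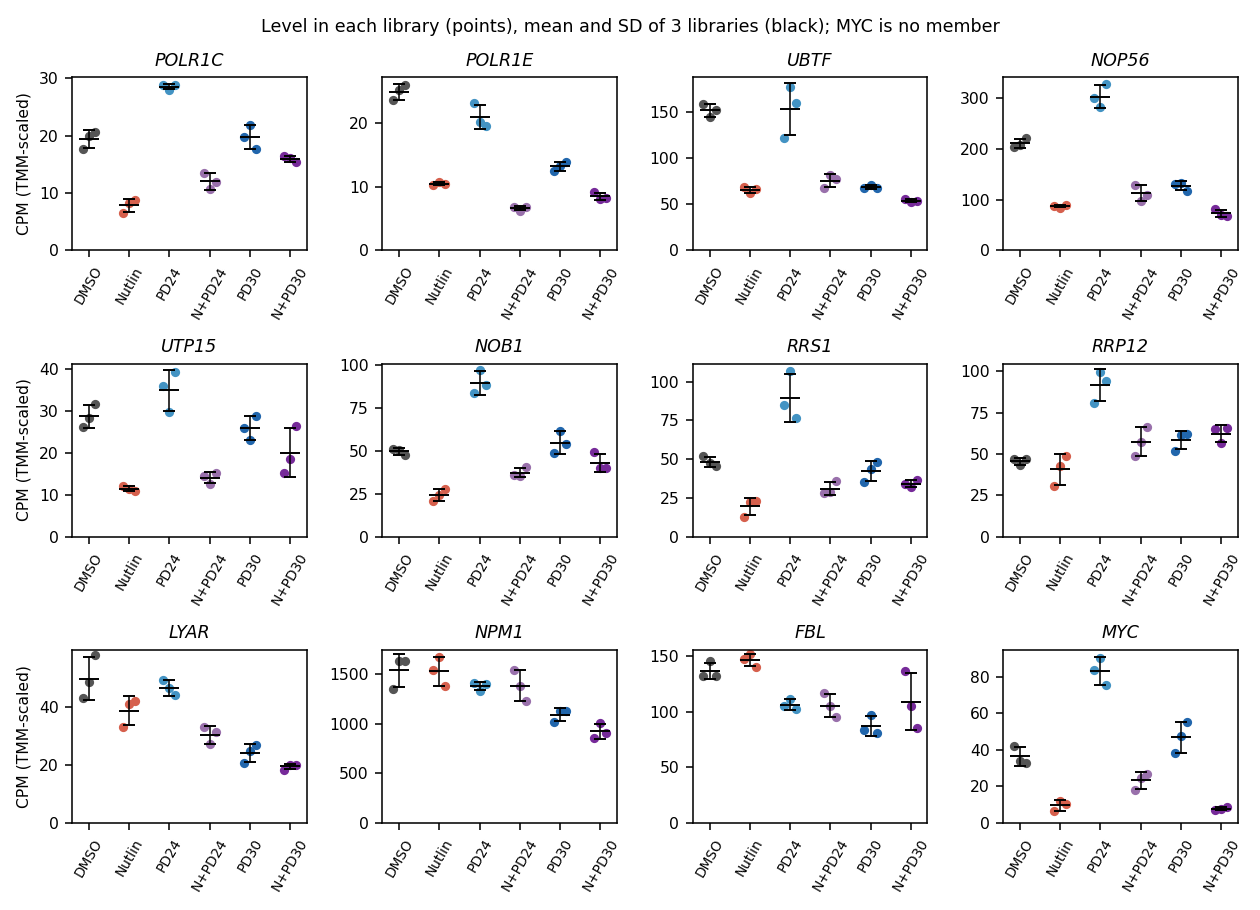
Each panel shows the TMM-scaled CPM of 1 gene in the 18 libraries, with points for libraries and black bars for the mean and SD of 3 libraries; axes start at 0 and differ between panels. POLR1C, UTP15, NOB1 and RRS1 were lowest in Nutlin and highest in PD24, UBTF and LYAR were low in PD30 and lowest in N+PD30, and MYC, which is no member, was highest in PD24 and lowest in N+PD30.

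Continued inhibition was then set directly against removal. In PD30, 29 of the 40 members were lower than in PD24, against 12.9% of the 15171 genes tested, and none was higher, against 12.2%. All 40 fold changes were below 0, with a median of -0.51 and a median of all genes of -0.02. No member was higher at an unadjusted p under 0.05 either, nor with DESeq2, which called 31 lower. Past 2-fold, 4 members were lower, with 4.07% of all genes, and none higher, with 3.42%. The largest falls were NOP56 at -1.22 ± 0.10 (edgeR adjusted p = 0.000224), UBTF at -1.13 ± 0.14 (adjusted p = 0.000852) and RRS1 at -1.06 ± 0.15 (adjusted p = 0.00164). RRS1 was at 35.5, 43.4 and 48.1 CPM in PD30, below all 3 PD24 libraries. The count of lower members ranged from 20 to 29 when a library was left out, with 20 called without replicate 1 of PD30. With the replicate number as a block, which the libraries of these groups supported, 36 members were lower and none higher. Calls over all 15171 genes rose with the block as well, from 1963 lower and 1853 higher to 3120 and 2987.

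The difference ran through the roles. Of the assembly factors, 9 of 10 for the small subunit and 8 of 10 for the large were called lower in PD30, each with a median of -0.56. The median was -0.58 for the box C/D proteins and -0.55 for the box H/ACA group. It was -0.41 for the polymerase machinery and -0.31 for the abundant nucleolar proteins. In the polymerase POLR1B, POLR1C, POLR1E and UBTF were lower, while POLR1A (-0.32 ± 0.11, edgeR adjusted p = 0.0646) and RRN3 (-0.21 ± 0.09, adjusted p = 0.136) were not called. POLR1C lost its call without replicate 1 or 3 of PD30 (adjusted p up to 0.0607). NCL (-0.47 ± 0.09, edgeR adjusted p = 0.00511) and NPM1 (-0.31 ± 0.08, adjusted p = 0.0252) were lower, and FBL was not called (-0.26 ± 0.11, adjusted p = 0.106). NPM1 was no longer called without replicate 1 of PD24 or any of the PD30 libraries (adjusted p up to 0.138). With the block, POLR1A (edgeR adjusted p = 0.0222) and FBL (adjusted p = 0.018) were lower, as were NHP2, GNL3, DDX21, UTP15 and PPAN, and RRN3 was not (adjusted p = 0.052). CCNA2 was at 2.76 to 3.60 CPM in PD24 and at 3.81 to 4.92 in PD30. Of the 121 other ribosome biogenesis genes 60 were lower and 1 higher, and 79 and 2 with the block. Of the 77 ribosomal proteins 1 was lower and 1 higher, and 12 and 1 with the block.

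Removal was also read under Nutlin. N+PD24 was compared with Nutlin by limma on log2(CPM + 1) because its deposited values are a normalized signal. Here 13 of the 40 members were higher, against 17.0% of 15927 genes tested, and 2 were lower, against 17.2%. With the replicate number as a block, which the libraries of these groups supported, 17 were higher and 5 lower. Calls over all 15927 genes rose with the block as well, from 2712 higher and 2747 lower to 4274 and 4169. Leaving out a library gave 8 to 12 higher and 2 to 5 lower, with 8 higher without replicate 1 or 2 of Nutlin and 5 lower without replicate 1 of N+PD24. The median of the members was 0.15 and that of all genes 0.01. No member passed 2-fold, where 4.60% of all genes were lower and 2.49% higher.

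RRS1 was at 28.4, 28.8 and 35.6 CPM in N+PD24, above all 3 Nutlin libraries (0.69 ± 0.21 on the log2(CPM + 1) scale, limma adjusted p = 0.0281). NOB1 was at 35.9, 35.2 and 40.4 CPM (0.62 ± 0.13, limma adjusted p = 0.00609), and NOP16 at 40.2, 34.2 and 38.9 against 20.3, 26.6 and 28.5 in Nutlin (0.59 ± 0.15, adjusted p = 0.0125). The RRS1 call was lost without replicate 2 or 3 of N+PD24 (adjusted p up to 0.0827). POLR1E fell further, to 6.84, 6.23 and 6.77 CPM (-0.58 ± 0.13, limma adjusted p = 0.00631), the lowest values of this gene in the series. FBL was lower as well, at 117, 105 and 95.6 CPM (-0.46 ± 0.11, limma adjusted p = 0.00991).

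UBTF was at 67.7, 82.1 and 77.5 CPM in N+PD24 (0.20 ± 0.11, limma adjusted p = 0.166), POLR1B at 31.2, 27.4 and 31.6 (0.23 ± 0.12, adjusted p = 0.174) and RRN3 at 51.3, 41.3 and 45.6 (0.28 ± 0.12, adjusted p = 0.0855). With the block RRN3 was called higher (limma adjusted p = 0.0145). POLR1A was at 100.2, 93.0 and 114 CPM and was called higher (0.33 ± 0.11, limma adjusted p = 0.044), but not in 5 of the 6 fits that left out a library. NCL was at 872, 764 and 751 CPM (-0.13 ± 0.11, limma adjusted p = 0.415) and NPM1 at 1548, 1380 and 1235 (-0.14 ± 0.13, adjusted p = 0.458). All 13 members that were higher here were among the 17 higher in PD24 against DMSO, a comparison with no library in common (76.5% of the 17). Over all genes called higher the shared part was 67.0% and 65.2%. MYC was at 18.1, 24.6 and 26.9 CPM in N+PD24, above Nutlin (1.23 ± 0.22, limma adjusted p = 0.00236) and below DMSO.

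Continued inhibition was also compared with no inhibition under Nutlin. In N+PD30, 9 of the 40 were lower than in Nutlin, against 24.7% of 15721 genes tested, and 9 were higher, against 24.3%. Both shares were near the background, and the median of the members, 0.00, equalled that of all genes. Past 2-fold, 1 member, LYAR, was lower, with 13.9% of all genes, and none was higher, with 8.43%. The lower members were LYAR, NOP58, NPM1, NCL, FBL, EBNA1BP2, DDX21, DKC1 and UBTF. The higher ones were POLR1C, NOB1, RRS1, UTP15, RRP12, NOP2, RRP9, BYSL and POLR1D. Without replicate 2 of Nutlin 4 were lower and without replicate 2 of N+PD30 5 were.

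LYAR was at 32.9, 40.8 and 42.1 CPM in Nutlin and at 18.3, 20.0 and 19.9 in N+PD30 (-1.03 ± 0.14, edgeR adjusted p = 0.000172). NOP58 went from 80.8, 84.3 and 72.6 CPM to 41.8, 44.0 and 45.8 (-0.89 ± 0.12, edgeR adjusted p = 0.000154). NPM1 was at 859, 1007 and 905 CPM in N+PD30 (-0.77 ± 0.13, edgeR adjusted p = 0.000608), below all Nutlin libraries. NCL was at 597, 549 and 515 CPM (-0.70 ± 0.12, edgeR adjusted p = 0.000856). FBL was at 137, 105 and 85.6 CPM (-0.46 ± 0.16, edgeR adjusted p = 0.037), and its call was lost without replicate 2 or 3 of N+PD30 or without any of the Nutlin libraries (adjusted p up to 0.119). UBTF was at 55.9, 52.6 and 54.0 CPM (-0.32 ± 0.11, edgeR adjusted p = 0.0373), and was no longer called without replicate 2 or 3 of N+PD30 or without any of the Nutlin libraries (adjusted p up to 0.158).

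POLR1C moved the other way, to 16.4, 16.1 and 15.3 CPM in N+PD30 (0.99 ± 0.16, edgeR adjusted p = 0.000568). NOB1 was at 48.9, 40.1 and 39.6 CPM (0.79 ± 0.15, edgeR adjusted p = 0.00155), RRS1 at 33.7, 32.2 and 36.5 (0.78 ± 0.20, adjusted p = 0.00861) and UTP15 at 15.3, 18.6 and 26.5 (0.78 ± 0.20, adjusted p = 0.007). None of these overlapped with Nutlin. POLR1A, POLR1B and RRN3 were not called, at 0.11 ± 0.12, 0.29 ± 0.13 and 0.24 ± 0.13. Of the 9 lower members, 7 were also lower in PD30 against DMSO, which shares no library with this comparison (77.8% of the 9 and 53.8% of the 13). Over all genes called lower, the shared part was 56.4% and 57.1%.

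The effect of Nutlin while CDK4/6 stayed inhibited was read from N+PD30 against PD30. Here 18 of the 40 members were lower, against 5.64% of 15077 genes tested, and none was higher, against 8.84%. At an unadjusted p under 0.05, 2 were higher, namely NHP2 at 0.45 ± 0.15 (edgeR adjusted p = 0.0833) and BOP1 at 0.54 ± 0.22 (adjusted p = 0.129), both named after their values were seen. With the replicate block, which these libraries supported, 20 were lower and NHP2 was higher (edgeR adjusted p = 0.0356). Calls over all 15077 genes rose with the block as well, from 850 lower and 1333 higher to 2125 and 2250. DESeq2 also called NHP2 higher (adjusted p = 0.0447). The median of the members was -0.33 and that of all genes -0.01. No member passed 2-fold, where 0.497% of all genes were lower and 3.18% higher. Scaling by total counts gave 22 lower members and moved the split of all calls from 850 lower and 1333 higher to 1421 and 1107.

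The count fell from 18 to 3 without replicate 2 of N+PD30, to 4 without replicate 1 of PD30, to 6 without replicate 3 and to 10 without replicate 2 of PD30. Without replicate 3 of N+PD30, 3 members were called higher. NOP56 had the largest fall, from 132, 134 and 118 CPM to 81.2, 69.1 and 68.4 (-0.80 ± 0.11, edgeR adjusted p = 0.00429), and it stayed called whichever library was left out (adjusted p up to 0.0345). NOP58 and DKC1, which carries the pseudouridine synthase activity of the H/ACA particle, stayed called as well (adjusted p up to 0.0435 and 0.0324).

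TAF1D, a subunit of the RNA polymerase I selectivity factor, was at 20.3, 17.6 and 24.8 CPM in PD30 and at 9.10, 10.9 and 15.8 in N+PD30 (-0.79 ± 0.21, edgeR adjusted p = 0.041). Its call was lost in 5 of the 6 fits that left out a library. TAF1D is also a host gene of 8 small nucleolar RNAs. HEATR1, an early small subunit factor, was at 90.8, 83.1 and 97.3 CPM in PD30 and at 45.7, 55.1 and 69.5 in N+PD30 (-0.66 ± 0.15, edgeR adjusted p = 0.0252), and was no longer called without replicate 1 or 3 of PD30 or replicate 2 of N+PD30. Its exons overlap those of LGALS8 on the opposite strand.

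Of the standard genes, POLR1B was at 30.6, 31.4 and 34.2 CPM in N+PD30 (-0.53 ± 0.10, edgeR adjusted p = 0.0125), RRN3 at 39.2, 46.9 and 51.4 (-0.57 ± 0.12, adjusted p = 0.0173), and POLR1A at 93.3, 85.1 and 92.2 (-0.13 ± 0.09, adjusted p = 0.34). POLR1B and RRN3 lost their calls without replicate 1 of PD30 or replicate 2 of N+PD30, and RRN3 also without replicate 3 of PD30 (adjusted p up to 0.0759). UBTF (-0.33 ± 0.09, edgeR adjusted p = 0.0423) and NCL (-0.35 ± 0.09, adjusted p = 0.0427) were lower, and NPM1 (-0.23 ± 0.09, adjusted p = 0.13) and FBL (0.34 ± 0.17, adjusted p = 0.202) were not called. UBTF lost its call in each of the 6 fits that left out a library, and NCL in all but that without replicate 1 of N+PD30. Of the 18 lower members, 15 were lower with Nutlin alone (83.3% of the 18 and 57.7% of the 26), and over all genes called lower the shared part was 84.7% and 16.3%. MYC was at 7.07, 7.29 and 8.71 CPM in N+PD30, the lowest mean of any group (-2.59 ± 0.16, edgeR adjusted p = 5.65e-05).

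The difference between both Nutlin responses was then tested itself, as an interaction over 12 libraries. A positive value in a gene that fell with Nutlin means that Nutlin lowered a gene less in the presence of PD0332991. It was positive and called for 10 of the 40 members, against 12.8% of 16113 genes tested, and negative for none, against 7.03%. The median of the members was 0.24 and that of all genes 0.06. With size factors in place of TMM the median of all genes was 0.01. The split of all calls then moved from 2060 positive and 1133 negative to 1756 and 1296. With DESeq2 10 were positive and none negative, and at an unadjusted p under 0.05 none was negative. No member passed 2-fold, where 5.28% of all genes were positive and 4.94% negative. The largest were RRS1 at 0.98 ± 0.26 (edgeR adjusted p = 0.0168), POLR1C at 0.98 ± 0.19 (adjusted p = 0.00277) and UTP15 at 0.95 ± 0.24 (adjusted p = 0.0133). UBTF followed at 0.84 ± 0.11 (edgeR adjusted p = 0.000401). UBTF lay at 65.9 ± 3.0 CPM in Nutlin and 68.8 ± 2.1 in PD30 (mean ± SD, n = 3) and at 54.2 ± 1.7 with both. POLR1B, POLR1E, NOP56, NOB1, NOP2 and RRP1B made up the rest.

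The interaction of POLR1A was 0.08 ± 0.12, of RRN3 0.27 ± 0.15, of NCL -0.07 ± 0.13, of NPM1 -0.26 ± 0.15 and of FBL 0.20 ± 0.20, and none of these 5 was called (edgeR adjusted p from 0.22 to 0.731). The calls of NOP56 and POLR1B were lost in most of the fits that left out a library and with size factors in place of TMM (adjusted p = 0.0685 and 0.0544). Without replicate 1 of PD30, 6 of the 10 calls were left. Of the 121 other ribosome biogenesis genes 20 were called positive and none negative, led by URB2 at 1.35 (edgeR adjusted p = 0.000658).

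**Figure D4:**
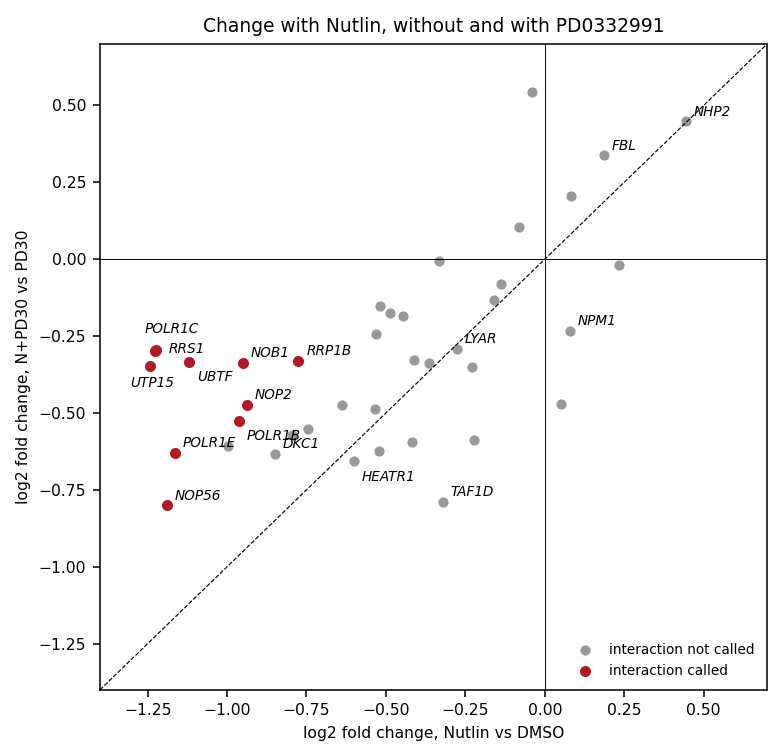
Each point is a member, with its log2 fold change with Nutlin in the absence of PD0332991 on the horizontal axis and in its continued presence (N+PD30 vs PD30) on the vertical axis; the dashed line marks equal change. The 10 members with a called interaction, in red, lie above the line, with RRS1, POLR1C and UTP15 farthest from it.

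Last, continued inhibition was set against removal under Nutlin. In N+PD30, 11 of the 40 members were lower than in N+PD24, against 16.3% of 15566 genes tested, and none was higher, against 15.8%. With scaling by total counts, which moved the median of all genes from -0.01 to 0.08, 9 were lower and 2 higher, and the median of the members turned from -0.09 to 0.02. The split of all calls then moved from 2540 lower and 2460 higher to 1958 and 3150. At an unadjusted p under 0.05, limma gave 2 higher, and edgeR on recovered reads called none. No member passed 2-fold, where 3.56% of all genes were lower and 3.31% higher. Without replicate 2 of N+PD30 7 were lower, and without replicate 1 of N+PD30 2 were higher. UTP20, a scaffold of the small subunit precursor, was at 108, 97.9 and 112 CPM in N+PD24 and at 56.8, 62.8 and 78.7 in N+PD30 (-0.73 ± 0.14, limma adjusted p = 0.00372).

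NOP56 was at 130, 97.9 and 110 CPM in N+PD24 (-0.66 ± 0.14, limma adjusted p = 0.00583), and LYAR at 32.9, 26.9 and 31.1 (-0.66 ± 0.13, adjusted p = 0.00475). NPM1 (-0.63 ± 0.13, limma adjusted p = 0.00655), NCL (-0.57 ± 0.12, adjusted p = 0.007) and UBTF (-0.52 ± 0.12, adjusted p = 0.00937) were lower too. The UBTF call was lost without replicate 2 of N+PD24 or of N+PD30 (adjusted p up to 0.057). POLR1A, POLR1B, RRN3 and FBL were not called (limma adjusted p from 0.172 to 0.941). Of the 11 lower members, 10 were also among the 29 lower in PD30 against PD24, in other libraries (90.9% of the 11 and 34.5% of the 29), and over all genes called lower the shared part was 34.1% and 44.1%.

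**Figure D5:**
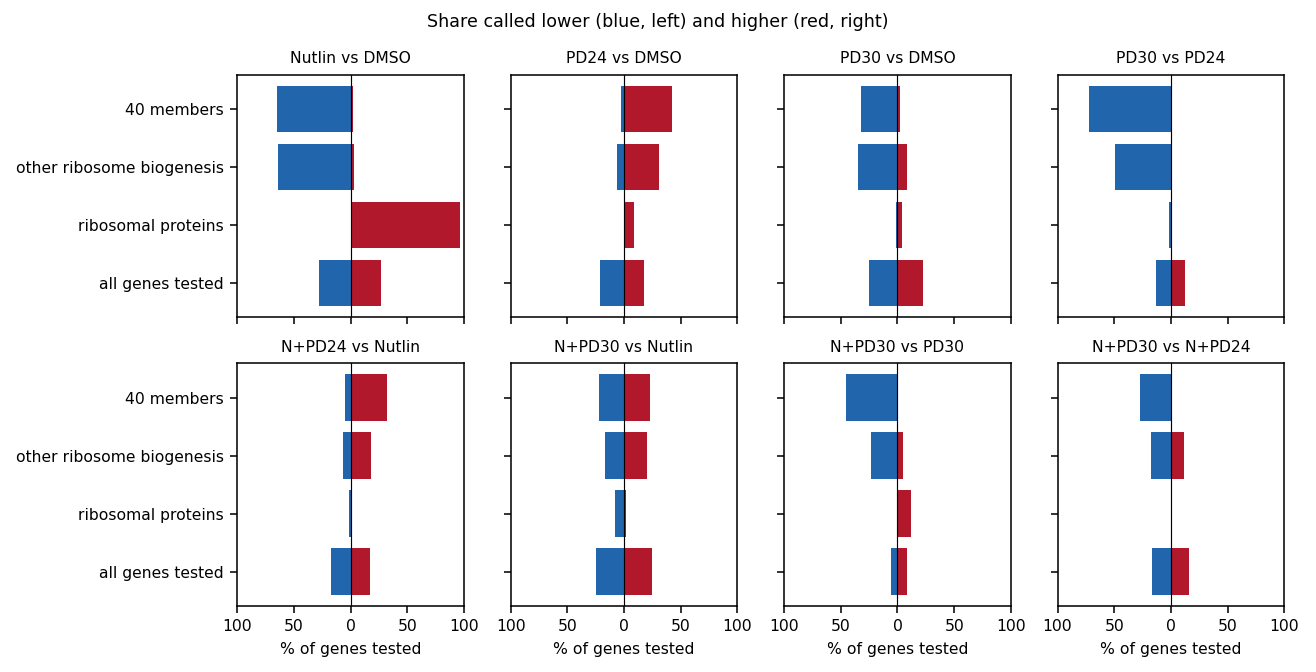
Bars give the share of genes called lower (left) and higher (right) in each comparison for the 40 members, the 121 other ribosome biogenesis genes, the 77 cytosolic ribosomal proteins and all genes tested. The members and the other ribosome biogenesis genes leaned the same way in Nutlin, PD24 and PD30 vs PD24, whereas the ribosomal proteins rose with Nutlin.

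The abundance of the members differed widely. Per kilobase of transcript (GENCODE canonical lengths), the mean DMSO level was 1168 CPM for NPM1, 277 for NCL and 122 for FBL, and 31.7 for UBTF, 18.8 for RRN3, 7.77 for POLR1A and 7.05 for POLR1B. Summed over the 40 members, the level was 5808 ± 343 CPM in DMSO, 4619 ± 236 in Nutlin, 6315 ± 186 in PD24, 4451 ± 192 in PD30, 4562 ± 296 in N+PD24 and 3619 ± 61 in N+PD30 (mean ± SD, n = 3). NPM1 and NCL made up much of these sums. For the 8 members of the polymerase machinery alone the sum was 493 ± 15 CPM in DMSO, 284 ± 9 in Nutlin, 567 ± 37 in PD24 and 397 ± 13 in PD30. It was 327 ± 17 in N+PD24 and 310.0 ± 13 in N+PD30.

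On GRCh37, the build of the reads, several of these genes lie close to others. UBTF spans chr17:42282401-42298994 and RRN3 chr16:15153890-15188168, both on the minus strand. POLR1A spans chr2:86247339-86333278 on the minus strand and POLR1B chr2:113299492-113337395 on the plus strand. NOP56, at chr20:2633239-2639039 on the plus strand, shares exon bases with the small nucleolar RNAs SNORD110, SNORA51 and SNORD86. POLR1C, at chr6:43477440-43530156 on the plus strand, shares exon bases with XPO5, YIPF3 and LRRC73 on the opposite strand. NHP2 overlaps RMND5B, UTP15 overlaps ANKRA2, and NOP16 overlaps ARL10 and HIGD2A, in each case on the opposite strand. Reads of bases shared with the opposite strand can be assigned to the right gene only where the library kept the strand. The small nucleolar RNAs in NOP56 lie on its own strand, so the strand does not separate them. DKC1, NOP58, NCL, GNL3 and TAF1D also share exon bases with small nucleolar RNAs on their own strand.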

How the data were processed

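RNA of SJSA-1 cells was sequenced as 1 × 50 base reads. TopHat and Bowtie2 were the aligners used by the authors, with hg19 as the genome, and HTSeq 0.6.0 gave counts per gene in its reverse-stranded setting. The kit is named, but not whether it keeps the strand. The deposited values were raw counts, except for N+PD24, whose deposited signal was counts divided by a size factor per library. Multiplied back, 100% of these values were whole within 0.01. The authors also deposited size-factor-scaled tables and their own comparison of Nutlin with DMSO, which were not used.

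Counts were tested with edgeR 4.0.16 (quasi-likelihood test, TMM, filterByExpr, R 4.3.3) on the groups compared. Comparisons with N+PD24 used limma 3.58.1 with an intensity trend on log2 values of the TMM-scaled CPM plus a pseudocount of 1. Calls were made at an adjusted p of 0.05 over all genes. DESeq2 1.42.0 was an alternative. The fits of N+PD30 vs Nutlin, N+PD24 vs Nutlin and the interaction were run on simulated counts. These were drawn with the spread that edgeR had fitted and without replicate pairing, and the other comparisons were not simulated. The members and lists were chosen with earlier results of these data known. Values per library are given for the 3 largest called changes each way in each comparison, and for NCL, NPM1, FBL, POLR1A, POLR1B, UBTF and RRN3. A few further values of such members, and the genes NOP58 and DKC1 beside NOP56, were added after they were seen. Same-numbered libraries deviated together (every correlation over 0.1) in PD30 with PD24 (0.319 to 0.607), N+PD24 with Nutlin (0.466 to 0.682) and N+PD30 with PD30 (0.207 to 0.707), so the block is given beside those results where it changed a call or a count. No replicates agreed within sampling noise. A marker on the cell type lists is not reported here. Drawings were made with matplotlib 3.10.9.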

Additional observations from a re-analysis of the deposited data

Results flagged for a closer look

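For 10 members the response to Nutlin differed with and without PD0332991 by the interaction test (N+PD30 minus PD30, less Nutlin minus DMSO; log2 scale, edgeR, adjusted over all genes). The values were 0.98 for RRS1, 0.98 for POLR1C, 0.95 for UTP15, 0.84 for UBTF, 0.66 for NOB1, 0.58 for POLR1E, 0.51 for NOP2, 0.49 for RRP1B, 0.49 for POLR1B and 0.44 for NOP56. All 10 were called lower with Nutlin alone, and each had a smaller fitted fall under PD0332991. The smaller fall follows from the positive sign and is no separate result. The interaction also holds the same DMSO and Nutlin libraries as the calls with Nutlin alone, so these are not independent of it. Replicate 1 of N+PD30 was the shallowest library, at 12704845 counts.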

How the results depend on the processing

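Of 2032 recomputed calls of single members, 1798 kept their direction and their side of the threshold, 234 kept the direction but missed the threshold, and none reversed. Leaving out libraries accounts for most of the losses, since 976 of 1012 calls were kept under the other alternatives. With an absolute log2 fold change over 1 in addition, the counts of lower and higher members were 6 and 0 for Nutlin vs DMSO, 0 and 2 for PD24 vs DMSO, 2 and 0 for PD30 vs DMSO, 4 lower for PD30 vs PD24, and 1 and 0 for N+PD30 vs Nutlin. They were 0 and 0 for N+PD24 vs Nutlin, and 0 lower for N+PD30 vs PD30 and for N+PD30 vs N+PD24, and 0 positive for the interaction. Scaling by total counts gave 0 higher for Nutlin vs DMSO, 5 lower for N+PD24 vs Nutlin and 2 higher for N+PD30 vs N+PD24. One fit over all groups gave 0, 5 and 4 for these counts. The replicate block gave 5 lower for N+PD24 vs Nutlin, also with edgeR on the recovered reads (chosen after seeing the data), and 1 higher for N+PD30 vs PD30, as did DESeq2. In the other comparisons not every correlation of same-numbered libraries was over 0.1, and the labels do not mention pairing. There the block moved no count of members by over 1.5 times. It gave 26 lower and 1 higher for Nutlin vs DMSO, 1 and 18 for PD24 vs DMSO, 13 and 1 for PD30 vs DMSO, 8 and 6 for N+PD30 vs Nutlin, 12 and 0 for N+PD30 vs N+PD24, and 12 positive for the interaction. Over all genes it moved the calls from 3142 lower and 2639 higher to 3519 and 3274 for PD24 vs DMSO. For PD30 vs DMSO they moved from 3839 and 3468 to 4176 and 3921, and for the interaction from 1133 and 2060 to 1533 and 2597. They were 4338 and 4234 for Nutlin vs DMSO, 3862 and 3736 for N+PD30 vs Nutlin, and 2747 and 2591 for N+PD30 vs N+PD24.

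Leaving out each library in turn gave the following ranges of lower and higher members. They were 24 to 29 and 0 to 2 for Nutlin vs DMSO, 0 to 1 and 13 to 19 for PD24 vs DMSO, 12 to 15 and 1 to 1 for PD30 vs DMSO, and 20 to 29 and 0 to 0 for PD30 vs PD24. They were 4 to 9 and 6 to 8 for N+PD30 vs Nutlin, 2 to 5 and 8 to 12 for N+PD24 vs Nutlin, 3 to 16 and 0 to 3 for N+PD30 vs PD30, and 7 to 11 and 0 to 2 for N+PD30 vs N+PD24. The interaction gave 6 to 11 positive. Fewer libraries entered each of these fits, and the cause was otherwise not tested.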
